A study of Mus musculus with 12 samples.

Results

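The comparison described here is the difference between Day 4 and Day 2 in vehicle-treated mouse embryonic stem cells (mESCs), that is, how control cells that never received OHT differed between the 2 harvests of the experiment. The 6 libraries titled EtOH were taken from the 12 libraries of the series, with 3 at each day. All of these mESCs were of the C57BL/6 strain and carried 2 floxed *Prdm10* alleles (Prdm10F/F) together with Rosa26-CreERT2, a Cre recombinase that needs 4-hydroxytamoxifen (OHT) to act and is driven from the ubiquitously active ROSA26 locus. They were grown on gelatin in serum with LIF, exposed for 24 h to ethanol in the volume used to deliver 50 nM OHT to the other 6 libraries, and harvested at Day 2 or Day 4 post-induction. PRDM10, the subject of the study, is a transcription factor. The labels do not say whether the libraries came from separate cultures, so that the p-values measure the spread between these libraries, which may be technical. Days in culture and anything else that differed between the 2 harvests cannot be told apart.

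Mouse ES cells in serum and LIF keep a pluripotent state that rests on OCT4 (encoded by *Pou5f1*), SOX2 and NANOG, and individual cells in such cultures move between naive-like and more primed expression states. They divide rapidly and ferment much of their glucose. In any cell, low oxygen stabilises the transcription factor HIF-1, which raises genes for glucose uptake, glycolysis and the restraint of mitochondria through a short DNA element with the core ACGTG, the hypoxia response element. Growth factors act through ERK on immediate early genes such as *Fos* and on feedback inhibitors such as the Sprouty genes, whereas cell density and tension act through the coactivator YAP on genes such as *Ccn2*.

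The libraries held 35649332 to 41409992 expected counts (RSEM's estimate of the read pairs from a gene). No pair of libraries of the same day was closer than sampling noise. The first principal component, with 69.0% of the variance, separated the days. All 8 markers of mESCs that were checked (*Pou5f1*, *Sox2*, *Nanog*, *Zfp42*, *Esrrb*, *Sall4*, *Dppa5a* and *Fgf4*) passed the minimum level for testing, with *Pou5f1* at 386 ± 2.6 TPM at Day 2 and 460 ± 20 TPM at Day 4 (TPM, each library's transcripts scaled to a common total, mean ± SD, n = 3). TPM was higher at Day 4 also for genes with near-equal normalised counts. *Ube2a* had mean normalised counts of 1642 at Day 2 and 1634 at Day 4, but 53.1 and 59.9 TPM. *Eef1d* had 13499 and 13536, but 424 and 460 TPM. A difference in TPM between the days is therefore not the size of a difference in level. *Prdm10* had normalised counts of 762, 816 and 809.6 at Day 2 and 812, 869 and 905 at Day 4, and its days overlapped (log2 fold change 0.12 ± 0.077, adjusted p = 0.269, where ± is the SE of the fit).

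Most genes differed little between the days, yet many differed by more than the spread between libraries of a day. Of 11572 genes with a mean normalised count above 100, 2380 (20.6%) were higher and 2371 (20.5%) were lower at Day 4 by DESeq2 at an adjusted p below 0.05, and these genes are called higher or lower below. The median absolute log2 fold change of the called genes was 0.29. Only 48 genes (0.415%) were called and over 2-fold higher, and 115 (0.994%) were called and over 2-fold lower, so that large differences were more often decreases. For 59.3% of tested genes the 3 libraries of one day did not overlap with those of the other. Among the genes with the largest decreases were *Fosb*, *Ndufa4l2*, *Egln3*, *Stc1*, *Anxa2* and *Bhlhe40*, and among those with the largest increases were *Pramel7*, *Elobl*, *Myc*, *Foxd3* and *Amotl2*. In the descriptions of gene lists below, the share of all tested genes called in a direction (20.6% higher, 20.5% lower) and the median over all tested genes, which was -0.0015, are the background. Named genes are the extremes of all genes and of each list, and any other gene was named after its value had been seen.

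Genes that HIF-1 activates and genes of glycolysis were called lower at Day 4 with 1 exception among the tested members of each list, and their medians lay farther from 0 than those of the other lists shown in the plot of gene lists. Of 15 tested hypoxia-HIF targets, out of 17 in the list, 14 were called lower and none higher, with a median log2 fold change of -1.39, where 20.5% of all tested genes were called lower. Of 18 tested genes for glucose uptake, the glycolytic enzymes and lactate export, 17 were called lower and none higher, with a median of -1.01. Together the 18 glycolysis genes took 1.84% ± 0.034 of all expected counts at Day 2 and 1.01% ± 0.011 at Day 4 (SD, n = 3). Since these are bulk libraries, a lower level in every cell and a smaller share of cells with a high level cannot be told apart.

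The promoters of these genes were searched for ACGTG, the core of the element that HIF-1 binds. Whether the motif relates to the day difference was not tested. Of 13 tested hypoxia-HIF targets with a RefSeq promoter window (250 bases before to 50 after a start site, GRCm38.p6), 11 (84.6%) held ACGTG on either strand in at least 1 of their windows, as did 12 (70.6%) of 17 glycolysis genes. Among all 8969 tested genes with a window, 30.5% did, and 19.6% of all 32851 windows held it. Genes can have several windows, and CACGTG, an E-box that other factors bind, contains ACGTG on both strands. A match is a description of the letters and does not show binding. The searched members without a match were *Tpi1*, *Pfkl*, *Gpi1*, *Eno1* and *Pfkp* in glycolysis and *Pdk1* and *Kdm3a* among the hypoxia-HIF targets. All of these but *Kdm3a* were called lower, whereas *Pfkm*, which was not called, had up to 3 matches in a window. The stretches below are shown because they belong to the 2 members of each list with the largest decreases, all 4 of which had a match. They are from RefSeq, run 5′ to 3′ on the gene's strand, and have ACGTG or its reverse complement CACGT in capitals. For *Slc16a3*, *Egln3* and *Bnip3* they end 11 bases before the RefSeq start site, where the second match of *Slc16a3* is cut by its last base, whereas the match of *Aldoc* lay after its start, inside the annotated first exon, and only its surroundings are given. *Ndrg1*, *Bnip3l* and *Slc2a3* had no window. The *Slc16a3* stretch lies in an intron of a longer GENCODE transcript and reaches the first exon of a shorter one.
Egln3, chr12:54203885-54204124, minus strand: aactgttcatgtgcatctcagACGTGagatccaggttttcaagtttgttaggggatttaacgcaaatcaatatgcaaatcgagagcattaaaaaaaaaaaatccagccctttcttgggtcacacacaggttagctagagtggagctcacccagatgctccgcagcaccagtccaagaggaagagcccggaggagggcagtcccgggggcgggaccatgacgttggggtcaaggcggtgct
Bnip3, chr7:138909517-138909756, minus strand: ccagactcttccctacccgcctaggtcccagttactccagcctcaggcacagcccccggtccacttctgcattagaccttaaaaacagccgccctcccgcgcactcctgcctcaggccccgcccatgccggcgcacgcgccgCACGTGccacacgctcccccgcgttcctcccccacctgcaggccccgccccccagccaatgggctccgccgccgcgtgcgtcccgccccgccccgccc
Slc16a3, chr11:120948817-120949056, plus strand: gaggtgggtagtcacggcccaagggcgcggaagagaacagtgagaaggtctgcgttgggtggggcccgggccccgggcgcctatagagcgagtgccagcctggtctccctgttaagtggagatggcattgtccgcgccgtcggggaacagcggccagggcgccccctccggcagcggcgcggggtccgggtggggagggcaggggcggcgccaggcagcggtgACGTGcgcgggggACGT
Aldoc, chr11:78323088-78323117, plus strand: cccccagggagtCACGTagctctgcggcaa

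*Egln3* encodes the prolyl hydroxylase PHD3, which marks HIF for destruction and is itself a HIF target. Its normalised counts were 1759.9, 1751 and 1766 at Day 2 and 263, 317 and 301 at Day 4. The days were far apart, and the log2 fold change was -2.58 ± 0.08 (adjusted p = 6.41e-224), a level 5.98-fold lower at Day 4. *Bnip3*, which encodes a receptor for the removal of mitochondria, had normalised counts of 6939.9, 6458 and 6551 at Day 2 and 1177, 1138 and 1188 at Day 4, with a log2 fold change of -2.51 ± 0.049 and an adjusted p too small for the software to hold. In its promoter the 2 matches shown above are the overlapping strands of 1 CACGTG. *Ndrg1*, a stress-response gene, and *Ankrd37*, which encodes an ankyrin repeat protein, fell alongside, with log2 fold changes of -2.38 ± 0.094 and -2.34 ± 0.079. *Egln1*, which encodes the main oxygen sensor PHD2, was 2.99-fold lower. *Pdk1*, whose kinase keeps pyruvate out of mitochondria, had a log2 fold change of -1.08 ± 0.037, and *Vegfa*, the angiogenic growth factor, had -0.93 ± 0.06. The smallest called decreases were those of *Mxi1*, an antagonist of MYC (-0.38 ± 0.069), and *Ak4*, a mitochondrial adenylate kinase (-0.34 ± 0.04). *Kdm3a*, a histone demethylase gene that hypoxia is known to induce, was the tested member that was not called (0.023 ± 0.039, adjusted p = 0.718). *Adm*, the vasodilator adrenomedullin, lay below the minimum mean, at 120.3, 111 and 111 at Day 2 and 12.3, 5.88 and 13.1 at Day 4, again with no overlap between the days.

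Further large decreases were found in genes outside these 2 lists. *Ndufa4l2*, a paralog of a respiratory chain subunit that HIF-1 induces, had normalised counts of 267, 271 and 229.6 at Day 2 and 23.5, 15.7 and 31.2 at Day 4 and a log2 fold change of -3.45 ± 0.24 (adjusted p = 3.65e-46). *Stc1*, which encodes the hormone stanniocalcin-1, had 179, 192 and 162 at Day 2 and 37.8, 23.5 and 28.1 at Day 4, with a log2 fold change of -2.58 ± 0.24 (adjusted p = 1.01e-25), although its mean lay so close to the minimum that leaving out any Day 2 library put it below. *Bhlhe40*, a transcriptional repressor of the circadian and stress responses, had 2110.3, 2189 and 2100.0 at Day 2 and 359, 367 and 366 at Day 4. For these 3 genes every Day 4 library was several-fold below every Day 2 library. *Ddit4*, an inhibitor of mTORC1 signalling induced by hypoxia and by ATF4, had 3729, 3491 and 3663 at Day 2 and 827, 731 and 784 at Day 4 and a log2 fold change of -2.22 ± 0.059. *Anxa2*, a calcium-dependent membrane-binding protein gene, had 994 ± 29.9 at Day 2 and 168 ± 4.83 at Day 4, with a log2 fold change of -2.57 ± 0.1 (adjusted p = 4.97e-141).

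Along the glycolytic pathway, the decrease reached from uptake to export. The glucose transporter genes *Slc2a1* and *Slc2a3* had log2 fold changes of -1.29 ± 0.038 and -0.98 ± 0.027. The hexokinase genes *Hk2* and *Hk1* fell less (-0.48 ± 0.036 and -0.36 ± 0.055). Of the 3 phosphofructokinase genes, *Pfkl* (-1.36 ± 0.044) and *Pfkp* (-0.95 ± 0.041) were called lower and *Pfkm* was the member that was not called (-0.086 ± 0.062, adjusted p = 0.315). *Aldoc*, an aldolase gene, had normalised counts of 1906, 1767 and 1745 at Day 2 and 390.1, 432 and 441 at Day 4 and a log2 fold change of -2.10 ± 0.076 (adjusted p = 5.1e-166), the lowest of the list. *Tpi1*, for triosephosphate isomerase, had 27477, 26523 and 25496 at Day 2 and 9399, 9256 and 9479 at Day 4, a 2.83-fold lower level at Day 4. *Pgk1*, for phosphoglycerate kinase, was 2.67-fold lower at Day 4, although a pseudogene, *Pgk1-rs7*, shares reads with it. *Gapdh*, often taken as a stable reference, had 74285, 75769.9 and 75606 at Day 2 and 58290.4, 57069.9 and 55558 at Day 4 and a log2 fold change of -0.40 ± 0.03 (adjusted p = 2.98e-38). *Ldha*, for lactate dehydrogenase, had a log2 fold change of -1.02 ± 0.035, and *Slc16a3*, for the lactate exporter MCT4, had 9033, 8631 and 8501 at Day 2 and 1949, 2052 and 2165 at Day 4 with a log2 fold change of -2.09 ± 0.047. In each of the genes given here by library, no Day 4 library reached the lowest Day 2 library.

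**Figure D1:**
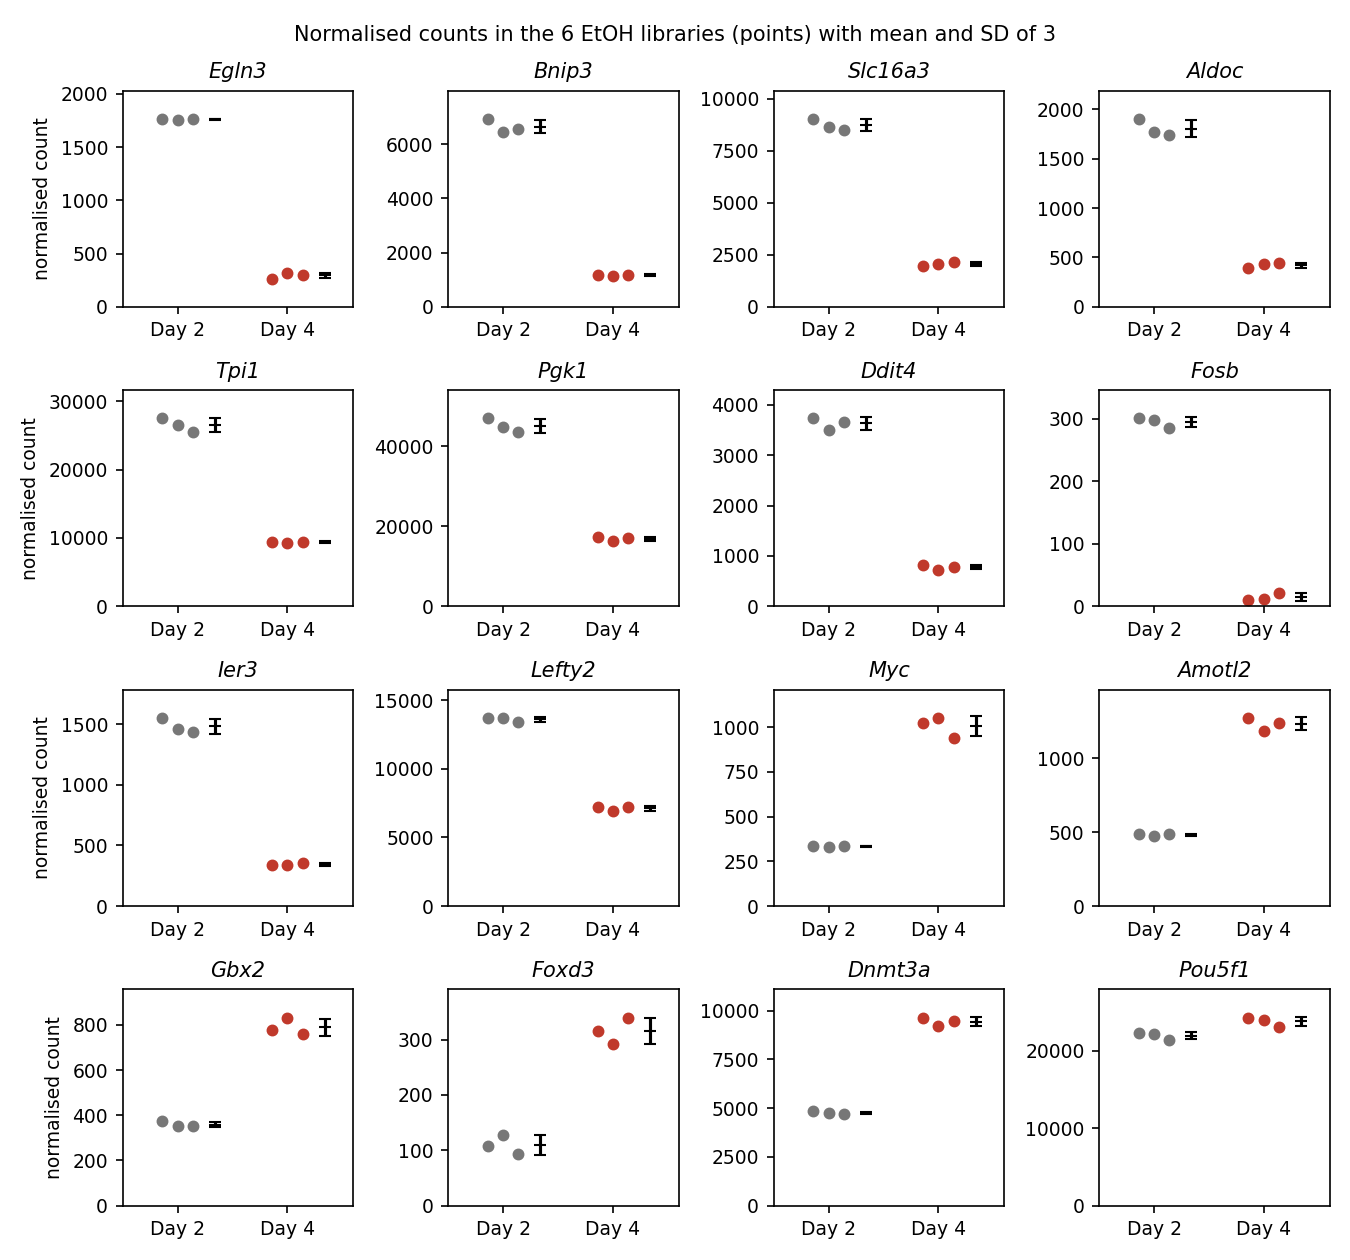
Normalised counts (y axis, each panel from 0) of 16 genes in the 3 Day 2 (grey) and 3 Day 4 (red) EtOH libraries, with the mean and SD of 3 beside the points. *Egln3*, *Bnip3*, *Slc16a3*, *Aldoc*, *Tpi1*, *Pgk1*, *Ddit4*, *Fosb*, *Ier3* and *Lefty2* were lower in every Day 4 library and *Myc*, *Amotl2*, *Gbx2*, *Foxd3* and *Dnmt3a* higher, while *Pou5f1* moved by only 0.11 on the log2 scale.

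Genes of growth factor signalling split into 2 groups by direction. Of 18 tested genes of the FGF-ERK response, 8 were called higher and 6 lower (median 0.12). The largest decreases belonged to immediate early genes: *Fosb*, an AP-1 subunit gene, had normalised counts of 301, 298 and 286 at Day 2 and 10.2, 11.8 and 22.1 at Day 4, and *Ier3*, an early gene that modulates survival, had 1552, 1460.1 and 1439 at Day 2 and 339, 335 and 355 at Day 4. Their log2 fold changes were -4.33 ± 0.26 (adjusted p = 2.58e-58) and -2.11 ± 0.079 (adjusted p = 3.34e-153), and the days did not overlap in either. *Fos* (-1.95 ± 0.21) and *Jun* (-1.58 ± 0.14), the founding AP-1 genes, also fell. *Myc*, a driver of growth and proliferation, went the other way, with 336, 328 and 335 at Day 2 and 1022, 1051 and 942 at Day 4 and a log2 fold change of 1.59 ± 0.088 (adjusted p = 8.24e-71). The feedback inhibitor genes *Spry4* (0.54 ± 0.057), *Spry2* (0.53 ± 0.063) and *Dusp6* (0.53 ± 0.056) and the ETS factor gene *Etv4* (0.41 ± 0.041) rose more modestly.

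Among targets of YAP and TEAD, 6 of 14 were called higher and 3 lower (median 0.03). *Amotl2*, a YAP inhibitor that is itself a target, had normalised counts of 486, 476 and 484 at Day 2 and 1272, 1185 and 1239 at Day 4 and a log2 fold change of 1.35 ± 0.076 (adjusted p = 2.39e-68). The matricellular protein genes *Ccn2* and *Ccn1* rose by 2.35-fold and 2.13-fold, and *Lats2*, which encodes a Hippo kinase, by 1.85-fold. Against these, the receptor kinase gene *Axl* and the phosphatase gene *Ptpn14* fell, with log2 fold changes of -0.57 ± 0.19 and -0.33 ± 0.059. The call for *Axl* was lost without Day 2 library 1 or 2 or Day 4 library 1 or 2 (adjusted p = 0.0514 to 0.0969).

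Genes of the Nodal pathway, a TGF-β-family signal that primes ES cells, were mostly lower: 6 of 9 were called lower and 1 higher (median -0.41). *Lefty2*, which encodes a secreted Nodal inhibitor and is a direct target, had normalised counts of 13714, 13713 and 13399.8 at Day 2 and 7189, 6928 and 7228 at Day 4. Its log2 fold change was -0.94 ± 0.035 (adjusted p = 9.4e-157), and that of its neighbour *Lefty1* was -0.94 ± 0.043 (adjusted p = 4.64e-101). The SMAD corepressor gene *Skil* and the Nodal co-receptor gene *Tdgf1* fell as well (-0.87 ± 0.037 and -0.58 ± 0.032), whereas the ligand gene *Nodal* rose (0.30 ± 0.057). The activin receptor gene *Acvr2b* had the smallest called decrease (-0.23 ± 0.082) and its call was lost without Day 2 library 2 or 3 or Day 4 library 1 or 2 (adjusted p = 0.0558 to 0.118). Of 6 tested BMP targets, 2 were called higher, both inhibitors of differentiation: *Id3* at 0.82 ± 0.082 and *Id1* at 0.57 ± 0.085.

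Pluripotency genes as a group were not lower at Day 4. Of 13 core pluripotency genes, 9 were called higher and 2 lower (median 0.20), and of 19 naive-state genes, 11 were called higher and 4 lower (median 0.13). *Pou5f1* had normalised counts of 22223, 22171 and 21428 at Day 2 and 24254, 23959.6 and 23043 at Day 4 (log2 fold change 0.11 ± 0.033, adjusted p = 0.00309). *Nanog* had 15187, 14933 and 14444 at Day 2 and 14365, 14054 and 13444 at Day 4 (log2 fold change -0.09 ± 0.037, adjusted p = 0.0449), a call that was lost without Day 2 library 1 or 2 or Day 4 library 2 or 3 (adjusted p = 0.103 to 0.243). *Sox2* and *Esrrb* overlapped between the days and were not called (-0.063 ± 0.038 and -0.033 ± 0.034), and *Klf4* was slightly higher (0.12 ± 0.042), a call lost without Day 2 library 2 or Day 4 library 3 (adjusted p = 0.0811 to 0.115). *Foxd3*, a repressor that guards the exit from naive pluripotency, had the largest increase of the core list, with 108, 127 and 92.7 at Day 2 and 316, 292 and 339.7 at Day 4 and a log2 fold change of 1.53 ± 0.15 (adjusted p = 2.63e-21). *Dppa2*, a chromatin-priming factor gene, had 0.61 ± 0.051. *Tdgf1*, given above with the Nodal genes, is also in the core list and had its largest decrease (-0.58 ± 0.032). In the naive list, *Gbx2*, a LIF-STAT3 target, had 374, 351 and 353 at Day 2 and 778, 833 and 759 at Day 4 with a log2 fold change of 1.14 ± 0.091 (adjusted p = 8.58e-34), and *Tbx3* had 0.72 ± 0.057, whereas *Prdm14* and *Dppa3*, linked to the germline and to low DNA methylation, fell (-0.34 ± 0.074 and -0.31 ± 0.06).

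The formative and primed genes moved in opposite directions. Of 13 tested, 3 were called in each direction (median -0.024). *Otx2*, a transcription factor of the primed state, had normalised counts of 415, 395 and 397 at Day 2 and 198, 192 and 162 at Day 4, and *Lef1*, a Wnt effector, had 177, 178 and 219.9 at Day 2 and 59.2, 51 and 56.3 at Day 4. Both were lower in every Day 4 library, with log2 fold changes of -1.13 ± 0.13 (adjusted p = 1.14e-17) and -1.79 ± 0.2 (adjusted p = 1.78e-17). The de novo DNA methyltransferase genes rose: *Dnmt3a* had 4836, 4737 and 4721 at Day 2 and 9643, 9224 and 9449 at Day 4, with a log2 fold change of 0.99 ± 0.037 (adjusted p = 4.55e-152), and *Dnmt3b* had 0.55 ± 0.04. Of the 9 genes of DNA methylation and TET oxidation, 5 were called higher and none lower (median 0.21), including the maintenance methyltransferase gene *Dnmt1* (0.21 ± 0.032) and *Tet2* (0.26 ± 0.052).

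Most markers of other cell types lay below the minimum mean, and their part in the differences above was not tested. Of 15 primitive streak and mesendoderm markers only 2 passed the minimum mean, 1 of which, *Eomes*, was called lower (254, 236 and 219 at Day 2 and 97, 107 and 117 at Day 4, log2 fold change -1.14 ± 0.16, adjusted p = 2.97e-11), and the summed level of the list was 4.09 to 4.73 TPM at Day 2 and 3.67 to 4.29 TPM at Day 4. Of 18 primitive endoderm markers, 5 of 8 tested were called higher and none lower, all of them basement membrane or endocytic receptor genes such as *Lrp2* (0.76 ± 0.06) and *Sparc* (0.50 ± 0.04), while the defining factors *Gata6*, *Gata4* and *Sox17* had means below 50 counts at both days. The sum of that list was 127 to 136 TPM at Day 2 and 182 to 192 TPM at Day 4. Fibroblast markers summed to 9.37 to 10.6 TPM at Day 2 and 9.04 to 9.58 TPM at Day 4, and of the 4 of 18 that were tested, the collagen genes *Col5a2* (0.77 ± 0.18) and *Col5a1* (0.35 ± 0.13) were called higher and the matrix protease gene *Mmp2* (-0.41 ± 0.13) lower. Trophectoderm markers summed to 48.3 to 49.9 TPM and then 41.5 to 44.1 TPM, with 2 of 5 tested called lower, and neuroectoderm markers summed to 62.2 to 64.1 TPM and then 67.1 to 71.9 TPM, with 1 of 2 tested called lower. Because TPM was higher at Day 4 also for genes with near-equal counts, a small rise in a sum need not be a rise in level. Of 20 markers of the rare 2-cell-like state only 1 was tested (*Zfp750*, called lower), and the list summed to 1.91 to 2.13 TPM at Day 2 and 3.73 to 4.00 TPM at Day 4. Means under 10 normalised counts were found for 8 of 15 primitive streak, 7 of 12 neuroectoderm, 5 of 14 trophectoderm, 7 of 18 fibroblast and 14 of 20 2-cell-like markers. No Hox gene reached the minimum mean.

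Germline genes, which DNA methylation keeps low in most cells, were higher more often than not: 10 of 13 tested were called higher and 1 lower (median 0.46). *Mael* and *Sycp1*, with roles in piRNA silencing and in meiotic chromosome pairing, had log2 fold changes of 0.74 ± 0.14 and 0.73 ± 0.12. *Ddx4* and *Dazl*, RNA-binding genes of germ cells, had 0.44 ± 0.077 and 0.56 ± 0.087. *Sycp3*, another gene of the meiotic axis, had normalised counts of 299.7, 292 and 291 at Day 2 and 204, 188 and 189.9 at Day 4 and was the member called lower (-0.60 ± 0.13, adjusted p = 3.16e-05). The smallest called increase was that of the homeobox gene *Rhox6* (0.20 ± 0.081), a call that was lost without Day 2 library 1, 2 or 3 or Day 4 library 1 or 2 (adjusted p = 0.101 to 0.168).

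Sterol genes were lower as a group. Of 25 genes of cholesterol synthesis and uptake, 19 were called lower and none higher (median -0.37). *Stard4*, a sterol carrier gene, had normalised counts of 1485, 1419.9 and 1641 at Day 2 and 936, 894 and 915 at Day 4 and a log2 fold change of -0.73 ± 0.07 (adjusted p = 2.9e-23). Its days did not overlap. *Insig1*, the sterol-sensing brake on this pathway, had -0.66 ± 0.041. The smallest called differences were in *Srebf2*, the pathway's transcription factor (-0.19 ± 0.045), and *Idi1*, an isoprenoid isomerase gene (-0.13 ± 0.053, with overlapping days). The call for *Idi1* was lost without Day 2 library 1 or 3 or Day 4 library 2 or 3 (adjusted p = 0.105 to 0.277).

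Stress responses did not share a direction. Of 27 tested ATF4 targets, 12 were called higher and 7 lower (median 0.27). The increases were led by amino acid transporter genes, *Slc6a9* for glycine (1.20 ± 0.2, with a mean that fell below the minimum when any Day 4 library was left out) and *Slc7a1* for cationic amino acids, at 1425, 1385 and 1612 at Day 2 and 2865, 2934 and 2952 at Day 4 (log2 fold change 0.99 ± 0.059, adjusted p = 2.85e-60), followed by *Cth*, *Chac1*, *Gpt2* and *Mthfd2* (log2 fold changes from 0.57 to 0.84). The decreases held *Ddit4*, given above, and *Ddit3*, the apoptosis-linked factor CHOP (-0.89 ± 0.14). Of 21 p53 targets, 13 were called lower and 1 higher (median -0.23). The cell cycle inhibitor gene *Cdkn1a* had 376, 389.9 and 359 at Day 2 and 229, 202 and 196 at Day 4, with a log2 fold change of -0.84 ± 0.12 (adjusted p = 1.53e-10), and the BH3-only gene *Bbc3* had -0.59 ± 0.12, against 0.13 ± 0.049 for *Ei24*, the member called higher, and -0.15 ± 0.045 for *Bax*. The call for *Ei24* was lost without Day 2 library 2 or 3 or Day 4 library 1 (adjusted p = 0.114 to 0.183), and that for *Bax* without Day 2 library 1 or Day 4 library 2 (adjusted p = 0.0598 to 0.064). Of 18 genes of the NRF2 and metal responses, 11 were called lower and 3 higher (median -0.14). The metallothionein gene *Mt1* had 9398, 9049.9 and 8390.2 at Day 2 and 5023, 5140.3 and 4774 at Day 4, with a log2 fold change of -0.85 ± 0.047, and *Me1*, which makes NADPH, had -0.77 ± 0.09, while the zinc exporter gene *Slc30a1* (0.64 ± 0.056) and ferritin heavy chain, *Fth1* (0.23 ± 0.043), rose.

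Genes of DNA replication, mitosis and histones showed small differences. Of 35 DNA replication genes, 24 were called higher and none lower (median 0.15), led by *Gins2* (0.47 ± 0.061) and the licensing factor gene *Cdc6* at 4912, 4918 and 4635 at Day 2 and 6673, 6417 and 6491 at Day 4 (log2 fold change 0.44 ± 0.041, adjusted p = 5.86e-25), with the smallest called increases in *Mcm6* (0.13 ± 0.032) and the histone mRNA-binding protein gene *Slbp* (0.13 ± 0.045), whose call was lost without Day 2 library 2 or 3 or Day 4 library 1 (adjusted p = 0.0633 to 0.144). Of 31 mitosis genes, 3 were called higher and 11 lower (median -0.027). Of 64 replication-dependent histone genes, 44 were called lower and 2 higher (median -0.20). *Hist3h2ba* fell most, with 1952, 1829 and 1775 at Day 2 and 1175, 1154 and 1238 at Day 4 and a log2 fold change of -0.64 ± 0.062 (adjusted p = 4.15e-23), and *Hist1h2bq* (-0.59 ± 0.15) is uncertain because near-identical copies share its reads. The 2 called higher were the testis-type variant genes *Hist1h2ba* (0.68 ± 0.15) and *Hist1h2aa* (0.61 ± 0.14).

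Ribosomal protein genes were slightly but widely lower. Of 79, 63 were called lower and none higher, with a median of -0.14 and a range from -0.28 to 0.024, and their share of all counts was 7.24% ± 0.16 at Day 2 and 6.66% ± 0.11 at Day 4 (SD, n = 3). *Rps10* had normalised counts of 23645, 23886 and 22512 at Day 2 and 19600.0, 19135 and 18781 at Day 4 and a log2 fold change of -0.28 ± 0.035 (adjusted p = 7.84e-15), and *Rps19* had -0.27 ± 0.035. The calls at the small end, *Rpl7a* (-0.076 ± 0.029) and *Rps9* (-0.076 ± 0.031), were lost without Day 2 library 1 or 2 or Day 4 library 2 or 3 (adjusted p = 0.0741 to 0.192) for *Rpl7a* and without Day 2 library 1 or 2 or Day 4 library 2 or 3 (adjusted p = 0.157 to 0.207) for *Rps9*. With a gene length trend removed, neither was called (log2 fold changes of -0.050 for *Rpl7a*, adjusted p = 0.114, and -0.039 for *Rps9*, adjusted p = 0.233), and the median of the list was -0.099. In TPM the summed level of the list overlapped between the days, at 106169 to 108744 at Day 2 and 102429 to 111407 at Day 4. That overlap does not show an unchanged level, because TPM was higher at Day 4 also for genes with near-equal counts (*Eef1d*, 424 and 460 TPM). Of 41 ribosome biogenesis genes, 20 were called higher and 2 lower (median 0.080), and of 39 translation factors 17 were called higher and 6 lower (median 0.071). Among the genes that the study singled out, *Eif3b*, a translation initiation factor subunit gene, had 12712, 12626 and 13455 at Day 2 and 15704, 14619.6 and 15787 at Day 4 with a log2 fold change of 0.25 ± 0.04 (adjusted p = 8.61e-09), *Selenow*, a selenoprotein gene, had 0.55 ± 0.097 and *Rpl19* had -0.13 ± 0.031. *Eef1d*, *Ss18* and *Ube2a* were not called (0.0038 ± 0.035, 0.053 ± 0.043 and -0.0074 ± 0.059). Of 432 tested genes that the study lists as bound by PRDM10, 97 were called higher and 62 lower (median 0.011), that is 22.5% and 14.4% beside the background of 20.6% and 20.5%.

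Lysosomal genes were lower too, with 17 of 25 called lower and none higher (median -0.20). The sialidase gene *Neu1* had normalised counts of 612, 640.0 and 687 at Day 2 and 427, 417 and 457 at Day 4 and a log2 fold change of -0.57 ± 0.093 (adjusted p = 1.18e-08), and *Fnip1*, a regulator of lysosomal signalling, had -0.48 ± 0.046. The smallest called decreases were in *Npc1* (-0.17 ± 0.054), the cholesterol exporter, and *Fnip2* (-0.16 ± 0.052), and the calls were lost without Day 2 library 1 or 3 or Day 4 library 2 (adjusted p = 0.0503 to 0.0943) for *Npc1* and without Day 2 library 1 or 2 or Day 4 library 1 (adjusted p = 0.0627 to 0.0851) for *Fnip2*.

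The remaining lists held fewer or mixed calls. Of 76 nuclear genes of the respiratory chain, 4 were called higher and 17 lower (median -0.050). Of 12 LIF-STAT3 pathway genes, 5 were called higher and 2 lower, of 7 Wnt targets 3 and 2, of 15 SRF and actin genes 4 and 5, of 4 retinoic acid targets 1 and 2, and of 6 interferon response genes 3 and 2. Chaperone and survival genes were split too: of 15 heat shock genes 7 were called higher and 2 lower, of 19 genes of endoplasmic reticulum stress 2 and 8, of 16 BCL2 family and caspase genes 2 and 6, and of 7 genes of alcohol and aldehyde oxidation 1 and 3.

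**Figure D2:**
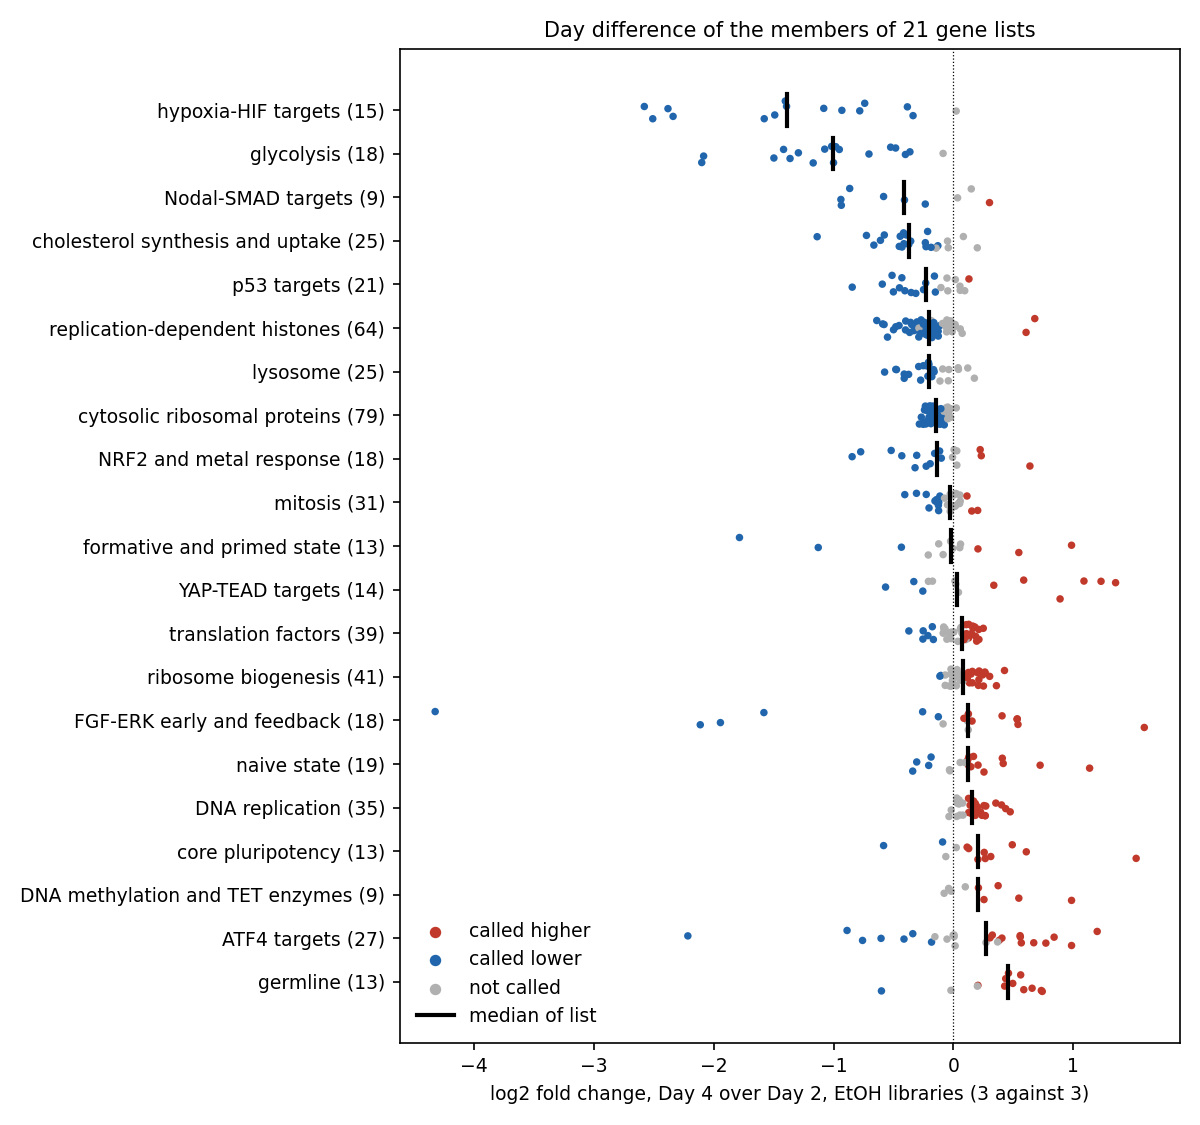
Log2 fold change of Day 4 over Day 2 in the EtOH libraries (x axis) for each tested member (points) of 21 gene lists (y axis, number tested in parentheses, ordered by median), with members called higher in red, called lower in blue, not called in grey, and the list median as a black bar. Hypoxia-HIF targets and glycolysis genes lie farthest to the left, with medians of -1.39 and -1.01, and germline genes farthest to the right at 0.46.

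Some of the largest differences rest on few reads or on reads that cannot be assigned with certainty. Among the increases, *Pramel7* (1.72 ± 0.2) and *Pramel6* (1.47 ± 0.19), of a family expressed in early embryos and ES cells, *Soga3* (1.71 ± 0.21, also lost to the minimum without any 1 Day 4 library) and *Elobl* (1.69 ± 0.18) had means below 100 counts at Day 2. *Ttn*, the giant muscle protein gene, had 2137, 2356 and 2710.1 at Day 2 and 4818, 7276 and 8324 at Day 4, so that its Day 4 libraries varied among themselves. *Exosc6*, an exosome subunit gene, had 363, 353 and 353 at Day 2 and 0, 0 and 9.04 at Day 4 and *Duxbl2*, of the DUX family, had 54.5, 339 and 314 at Day 2 and 16.3, 29.4 and 19.1 at Day 4, and RSEM's posterior SD reached 9.96% and 31.7% of their counts, so that both values are uncertain. Without Day 2 library 2 or 3 the mean of *Duxbl2* fell below the minimum. Outside the protein-coding class, the U3 small nucleolar RNA genes *Rnu3b2*, *Rnu3b1* and *Rnu3b4* had at most 1 normalised count in every Day 4 library and varied widely at Day 2, from 229.9 to 3319 normalised counts, and because these copies share reads no fold change is given for them. The increases were led by *Gm49089* (2.06 ± 0.23, with a mean that fell below the minimum when any Day 4 library was left out), *2210409E12Rik* (1.80 ± 0.099) and *Gm16211* (1.32 ± 0.19).

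The OHT libraries cover the same interval, in cells that had been exposed to OHT and that share no library with the vehicle comparison. The paper reports that OHT deleted *Prdm10* in these cells and that their growth then slowed. They are therefore not a repeat of the vehicle comparison. There 3568 of 11638 tested genes (30.7%) were called higher and 2670 (22.9%) lower at Day 4. Of the 4751 genes called in EtOH, 2796 (58.9%) were called in the same direction in OHT, which is 44.8% of the OHT calls, and 365 were called in the opposite direction. The difference between the arms, tested by an interaction term in a fit of 12 libraries, was called for 3752 of 11616 genes (32.3%), and for 1830 (38.5%) of the genes called in EtOH. Of the genes over 2-fold lower in EtOH, 101 of 115 were also called lower in OHT, and of those over 2-fold higher, 37 of 48 were also called higher.

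The fall of the hypoxia-HIF and glycolysis genes was present with OHT and smaller for many of them. The median log2 fold change of the hypoxia-HIF targets in OHT was -0.97, with 14 of 15 called lower where 22.9% of all tested genes were, and the interaction was called for 7, of which 6 fell less in OHT. For glycolysis genes the OHT median was -0.62, with 17 of 18 called lower. The interaction was called for 16, and 15 of these fell less in OHT, with *Slc2a3* at -0.26 against -0.98 in EtOH (interaction 0.72 ± 0.039, adjusted p = 3.15e-71). *Pfkp* was the exception, with -1.69 in OHT and -0.95 in EtOH (interaction -0.75 ± 0.071, adjusted p = 5.04e-23). *Egln3* fell slightly more in OHT (-2.91), whereas *Bnip3* (-2.36), *Ndrg1* (-2.32) and *Fosb* (-4.52) had no called interaction. The 18 glycolysis genes took 1.82% ± 0.083 of counts at Day 2 and 1.24% ± 0.016 at Day 4 in OHT.

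**Figure D3:**
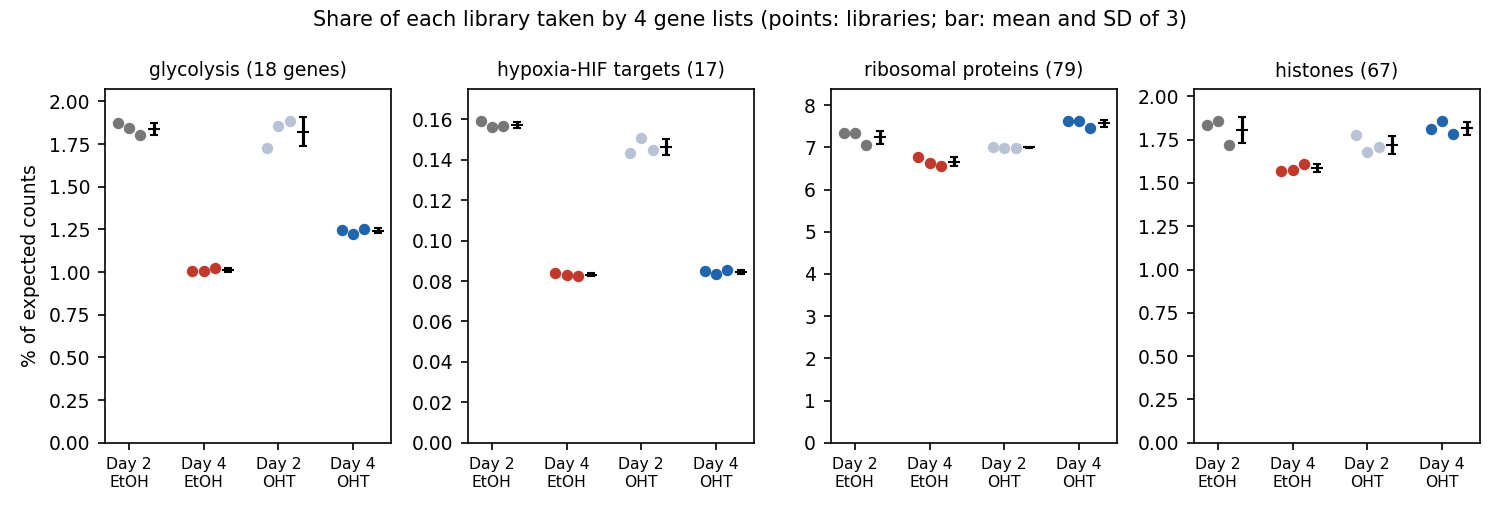
Percent of each library's expected counts (y axis, from 0) that fell in 4 gene lists, for the 3 libraries of each day and treatment (points), with the mean and SD. Glycolysis and hypoxia-HIF shares were lower at Day 4 in both treatments, whereas ribosomal protein and histone shares were lower at Day 4 in EtOH and higher in OHT.

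Other lists had a day difference of the other sign with OHT. The median of the ribosomal protein genes was 0.15 in OHT, where 64 were called higher and 2 lower, and the interaction was called for 76 of 79, with *Rps10* at 0.15 against -0.28 (interaction 0.42 ± 0.041, adjusted p = 3.02e-22). Replication-dependent histone genes had an OHT median of 0.093, and lysosomal genes 0.11, with the interaction called for 49 of 64 and for 16 of 25. Nuclear genes of the respiratory chain had an OHT median of 0.19, with 53 of 76 called higher and 6 lower. ATF4 targets had a median of -0.31 in OHT, with 4 called higher and 12 lower and the interaction called for 19 of 27. *Slc7a1* was at -0.13 with OHT (interaction -1.12 ± 0.098, adjusted p = 1.74e-27). In contrast, the cholesterol genes had a median of -0.38 in OHT, where 18 were called lower and none higher, and the interaction was called for 6 of 25. The germline list had an OHT median of 0.45, with the interaction called for 1 of 13. *Prdm10* itself, whose floxed alleles Cre acts on after OHT, had -0.11 in OHT against 0.12 in EtOH (interaction -0.23 ± 0.081, adjusted p = 0.0224), where reads from the whole gene were counted.

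**Figure D4:**
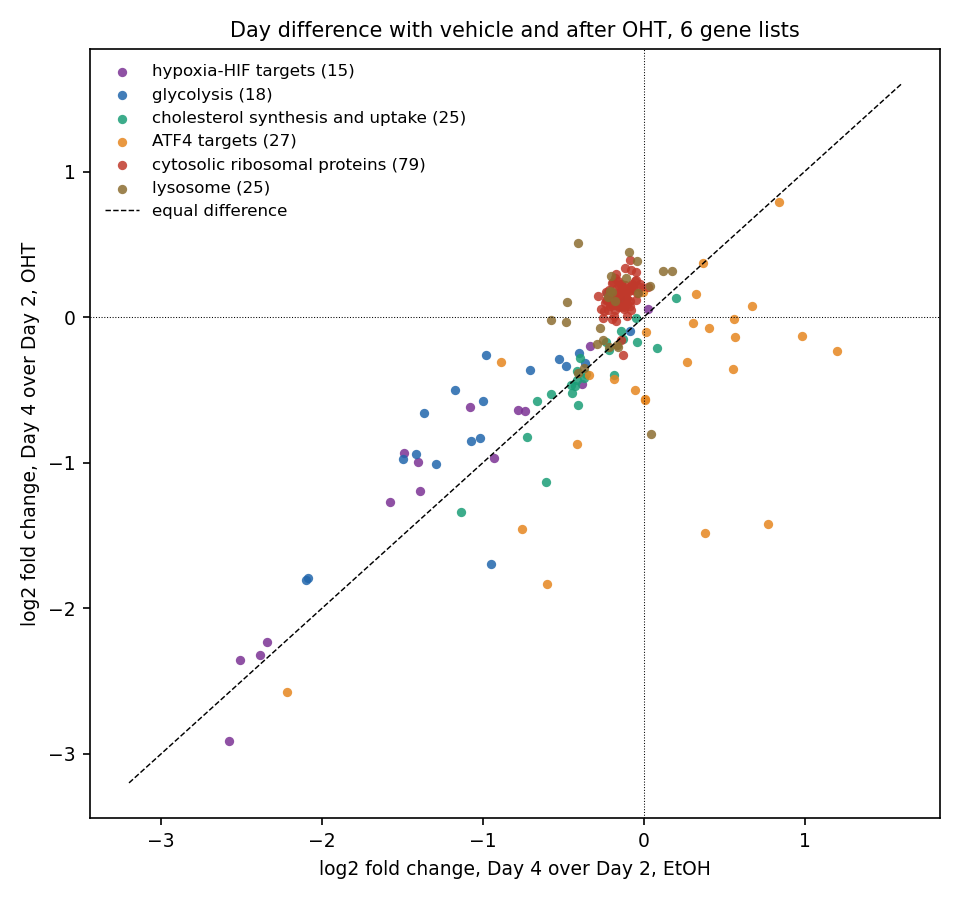
Log2 fold change of Day 4 over Day 2 in EtOH (x axis) and in OHT (y axis) for tested members (points) of 6 gene lists, with the dashed line marking equal differences. Hypoxia-HIF and glycolysis genes lie mostly along or above the line at negative values, with *Pfkp* and *Egln3* below it, most ribosomal protein genes lie left of 0 on the x axis and above 0 on the y axis, and many ATF4 targets lie below the line.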

How the data were processed

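Titles assigned the 12 libraries to groups. Per the labels, libraries were stranded and made from total RNA. Alignment by the authors was with STAR (2.6.0c) to GRCm38.p6, and RSEM then quantified GENCODE vM18 genes. The deposited expected counts and TPM (transcripts scaled to a common total) come from that step, 1 file per library. An expected count shares a read pair among the genes that it fits, so near-identical genes are uncertain, and TPM is scaled within a library and was used for description only. Separate deposited tables, in which the authors compare OHT with EtOH by log2 fold changes and p-values, were not used. 

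Expected counts of 54146 genes were rounded and tested with DESeq2 (1.42.0, R 4.3.3) for 3 Day 4 against 3 Day 2 EtOH libraries, by Wald statistics with its default size factors and independent filtering. A gene was called where its mean normalised count exceeded 100 and its p, adjusted by Benjamini-Hochberg, was under 0.05, with an absolute log2 fold change above 1 for over 2-fold. The OHT libraries were fitted alike, and the difference as an interaction over 12 libraries. Fold changes were not shrunken, and ± after a log2 fold change is the SE. Symbols and positions were those of GENCODE vM21, which matched 54079 genes. The fits were tested on simulated counts with known changes.

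The comparison, the gene lists and the motifs were chosen with earlier results of these data known. Named genes were *Prdm10* and those the study singled out, 5 pluripotency genes, the 8 highest and 8 lowest called protein-coding genes without overlap between days (gene-model names left out), the 3 highest and 3 lowest of other classes, and the 2 highest and 2 lowest called members of each list described. Some named genes are not reported here. With 35649332 to 41409992 expected counts per library, counting error is small above the minimum mean, and since reads had no molecular identifiers the spread between libraries is the measure of error. Alternatives were edgeR (4.0.16), other scalings, effective lengths, a gene length trend, a replicate block, filters, and leaving out each library.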

Additional observations from a re-analysis of the deposited data

Results flagged for a closer look

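The day difference differed between EtOH and OHT, by the interaction of treatment and day in DESeq2 over 12 libraries, for 3752 genes. Genes named in the text that are among them are given here. Each value is the log2 fold change of Day 4 over Day 2 in OHT minus that in EtOH. A positive value means a higher fold change in OHT, and the sign does not give the level in OHT. No explanation of these differences was tested.

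Among the genes the study singled out, the difference was -0.23 for *Prdm10*, -0.52 for *Eif3b*, -0.66 for *Eef1d*, -0.14 for *Rpl19*, -0.30 for *Ube2a* and -3.77 for *Selenow*, all negative. The level of *Prdm10* reads, counted over the whole gene, was nevertheless higher in OHT. These reads do not measure intact transcript. The paper reports that Cre removes an exon, which shifts the reading frame, and that PRDM10 protein was depleted after OHT. The mean normalised counts of *Prdm10*, scaled within each treatment, were 2188 at Day 2 and 2030 at Day 4 in OHT, against 796 and 862 in EtOH. Pluripotency genes mostly had positive values, with 0.46 for *Sox2*, 0.19 for *Nanog*, 0.39 for *Klf4*, 0.21 for *Esrrb*, 0.29 for *Tdgf1* and 0.23 for *Prdm14*, against -0.24 for *Dppa2* and -0.34 for *Gbx2*. In the formative and DNA methylation lists it was -1.26 for *Lef1*, 0.45 for *Otx2*, -0.41 for *Dnmt3b*, -0.63 for *Dnmt3a*, -0.16 for *Dnmt1* and -0.29 for *Tet2*.

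Signalling genes gave -0.31 for *Ier3*, -0.34 for *Spry4*, -0.24 for *Lefty1*, 0.43 for *Lefty2*, 0.59 for *Ccn2* and 0.44 for *Amotl2*. Metabolic genes gave -0.33 for *Egln3*, 0.29 for *Aldoc*, 0.29 for *Slc16a3*, 0.15 for *Gapdh*, 0.13 for *Ak4* and -0.22 for *Srebf2*. Stress genes gave -0.37 for *Ddit4*, 0.57 for *Ddit3*, -1.12 for *Slc7a1*, -0.39 for *Me1*, 0.29 for *Slc30a1* and 0.24 for *Bax*.

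Growth genes gave -0.23 for *Mcm6*, -0.20 for *Cdc6*, -0.28 for *Hist3h2ba*, -1.12 for *Hist1h2aa* and -1.37 for *Hist1h2ba*. In contrast, all 4 ribosomal protein genes named here as extremes of their list had positive values, with 0.42 for *Rps10*, 0.32 for *Rps19*, 0.12 for *Rpl7a* and 0.29 for *Rps9*. The lysosomal genes *Neu1* and *Fnip1* had 0.55 and 0.44. Among the extremes of all genes it was -1.03 for *Ttn*, -0.92 for *Pramel6* and -0.32 for *2210409E12Rik*. *Exosc6* (7.86) and *Rnu3b2* (12.21) have values that rest on libraries at or near 0 counts and are not sizes of an effect.

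Other genes given in the text also had a called interaction. In glycolysis and the hypoxia response it was 0.28 for *Slc2a1*, 0.72 for *Slc2a3*, 0.14 for *Hk2*, 0.70 for *Pfkl*, -0.75 for *Pfkp*, 0.52 for *Tpi1*, 0.47 for *Pgk1*, 0.18 for *Ldha*, 0.30 for *Egln1*, 0.46 for *Pdk1*, 0.24 for *Hif1a*, -0.69 for *Epas1*, 0.64 for *Pygl* and 0.72 for *Pgm1*. Signalling genes gave 1.102 for *Jun*, 0.57 for *Spry2*, 0.63 for *Dusp6*, 0.12 for *Etv4* and 0.37 for *Ccn1*. The amino acid response genes gave -2.20 for *Chac1*, -0.60 for *Gpt2* and -0.71 for *Mthfd2*, all negative. Pluripotency genes gave -0.24 for *Sall4*, 0.18 for *Dppa5a* and 0.22 for *Fgf4*. Markers of other cell types gave 0.53 for *Eomes*, -0.92 for *Lrp2*, -0.24 for *Sparc* and -0.65 for *Zfp750*. The imprinted gene *Peg3* had -0.40 and the mitochondrial gene *mt-Nd2* had -0.69.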

How the results depend on the processing

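Of 100 named genes, 21 lost their call in at least 1 of 15 settings, and among the genes not called *Eef1d* (0.0038) and *Ube2a* (-0.0074) took the other sign in some settings, down to -0.020 and up to 0.038. Apart from left-out libraries, the calls of *Idi1*, *Nanog*, *Rpl7a* and *Rps9* were lost with edgeR, with total counts and with effective lengths, the last of which also ended those of *Axl*, *Ei24*, *Rhox6* and *Slbp*. The replicate block ended the calls of *Acvr2b*, *Axl*, *Ei24*, *Idi1*, *Klf4*, *Rhox6* and *Rps9*. With the block and the length trend together *Nanog*, *Bax*, *Npc1* and *Rpl7a* were also lost, and *Idi1* and *Rps9* were lost with TMM scaling and with the length trend alone too. Leaving out 1 library at a time gave 1820 to 2059 genes called higher and 1812 to 2148 called lower, with 41 to 54 over 2-fold higher and 100.0 to 119 over 2-fold lower. edgeR's quasi-likelihood test called 3091 higher and 2824 lower, and total count scaling, the setting that moved the balance most, called 2737 and 2098. Without a minimum mean, 196 genes were over 2-fold higher and 245 lower, as genes of few counts then enter. When a log2 fold change of 1 was the null hypothesis, 7 and 46 were called. Without a minimum mean the median of the interferon response list was -0.0050 in place of 0.22, and 8 of 38 list medians took the other sign in some setting. The number called lower ranged from 7 to 23 for nuclear respiratory chain genes and from 7 to 12 for mitosis genes. The labels do not say whether library numbers paired the samples. Deviations of same-numbered libraries correlated at -0.13, -0.062 and 0.11. Because the deviations were taken within only 3 libraries a day, these values cannot show whether the samples were paired. With the number as a replicate block, 1892 genes were called higher and 1862 lower, and 2088 and 1658 when a gene length trend was also removed. With 3 libraries a day and 35649332 to 41409992 expected counts each, the spread between libraries of a day exceeded counting error (chi-square of 3.96 to 10.3 per gene), and genes below the minimum mean were not called.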

Other observations

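Further groups of genes, all chosen after their values had been seen and described without a test, also differed between the days in EtOH. Of 315 tested zinc finger genes named *Zfp* with a number, many of which encode repressors of transposable elements, 122 (38.7%) were called higher and 29 (9.21%) lower, beside 20.6% and 20.5% of all tested genes, with a median log2 fold change of 0.16. With OHT the counts were 141 higher and 26 lower. Of 11 genes of glycogen metabolism, 5 were called lower and 1 higher. The glycogen phosphorylase gene *Pygl* had normalised counts of 430.3, 411 and 426 at Day 2 and 118, 129 and 124 at Day 4, and phosphoglucomutase *Pgm1*, which joins glycogen to glycolysis, had 3473 ± 222 at Day 2 and 1049 ± 54.8 at Day 4 (mean ± SD, n = 3), both without overlap between the days. The synthase gene *Gys1* was called higher (0.57 ± 0.062).

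Epithelial genes were lower in part. Of 9 tested keratin and claudin genes, 6 were called lower and none higher (median -0.51). *Krt19* had normalised counts of 424 ± 34.7 at Day 2 and 102 ± 10.7 at Day 4 (mean ± SD, n = 3), while *Krt42*, the most abundant of them, was not called (0.029 ± 0.044, adjusted p = 0.687). Among the regulators of the HIF pathway itself, *Hif1a* (0.26 ± 0.044), *Epas1* (0.41 ± 0.084) and *Egln2* (0.24 ± 0.064) were called higher and *Vhl* (-0.37 ± 0.056), *Egln1* and *Egln3* lower. Of 17 tested imprinted genes, 5 were called higher, *Peg3* most (0.76 ± 0.041), and 6 lower. Of 13 mitochondrially encoded mRNAs, 4 were called higher and 2 lower, with *mt-Nd3* at 1.00 ± 0.13 and *mt-Nd2* at -0.15 ± 0.05 (with overlapping days). With OHT, 3 were called higher and 8 lower.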
